A study of Mus musculus with 11 samples.

Results

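Penk, Pdyn and Npy encode the precursors of 3 neuropeptides of the dentate gyrus, and the chromatin around their starts was read in 11 ATAC-seq libraries. In ATAC-seq a transposase places adapters in open DNA, and peaks are the stretches where such cuts accumulate. The members are the peaks called within 50 kb on either side of each start. In build mm9 the starts lie at 4.066 Mb on chromosome 4 for Penk, 129.526 Mb on chromosome 2 for Pdyn and 49.773 Mb on chromosome 6 for Npy. These positions are given to the nearest kb, so distances carry that uncertainty. The windows held 66 of the 497658 peaks on chromosomes 1 to 19 and X, 40 at Penk, 17 at Pdyn and 9 at Npy. Joined across libraries where they shared a base, they made 19 of 128823 merged regions, of which 6 lay at Penk, 9 at Pdyn and 4 at Npy.

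All libraries came from dentate gyrus of C57BL/6 mice aged 8 weeks, 1 mouse per library, infected with an adeno-associated virus (AAV) that carried an shRNA. The groups were shRNA-cFos E1 (2 libraries), shRNA-cFos E0 (3), shRNA-Ctrl E1 (3) and shRNA-Ctrl E0 (3). Control mice thus carried a virus and an shRNA as well, and no group was free of virus. The study concerns chromatin changes after neuronal activation. E0 lists are named as sham and E1 is the other state, while the kind of activation is not stated in the labels. The promoter that drove the shRNA, the share of cells infected and the remaining c-Fos level are not given in the sources used here. Whole dentate tissue was used, so fewer cells of a type and less open chromatin per cell cannot be told apart. Lists held 25145 to 78349 peaks, and 3 of them stood apart in length: shRNA-cFos E0 replicate 2 and shRNA-Ctrl E1 replicates 1 and 3, with 74432, 78349 and 75908 peaks, against at most 48262 in the other 8. Results are therefore given both as deposited and with lists of equal length. No annotation of build mm9 was at hand, so the tissue was not checked against marker genes.

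Neuropeptides are cut from larger precursor proteins, stored in dense-core vesicles and released by strong firing. Penk yields the enkephalins, opioid peptides of the delta and mu receptors. Pdyn yields the dynorphins, which act on kappa opioid receptors and are typical of granule cell axons, the mossy fibres. Npy encodes neuropeptide Y, which dampens excitatory transmission; in rat it is known from hilar interneurons at rest and appears in mossy fibres after seizures. All 3 genes are known to respond to neuronal activity, and c-Fos is a subunit of AP-1, a transcription factor made rapidly in active neurons.

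At the Npy start every E1 library had a called peak (5 of 5) and no E0 library had one (0 of 6). The merged region lay on chromosome 6 at 49772176 to 49772995, 820 bp wide, and was centred at -0.4 kb, where a negative sign means lower coordinates. It ran from -824 to -5 bp. Npy lies on the plus strand, so this is the upstream side, although a start known to the nearest kb may fall inside the region. Each of the 5 libraries called 1 peak there, 553 to 720 bp wide, and all 5 peaks covered the same 482 bp.

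The letters before the annotated Npy start are shown because this is the one start that separated the states. They are the 250 bases upstream of it in RefSeq build GRCm38.p6, chr6:49822460-49822709, plus strand, so they were not placed on the mm9 peak by coordinates. Capitals mark CpG dinucleotides. The matching bases before the outermost annotated Pdyn start, chr2:129699939-129700188, minus strand, are given for comparison.
Npy: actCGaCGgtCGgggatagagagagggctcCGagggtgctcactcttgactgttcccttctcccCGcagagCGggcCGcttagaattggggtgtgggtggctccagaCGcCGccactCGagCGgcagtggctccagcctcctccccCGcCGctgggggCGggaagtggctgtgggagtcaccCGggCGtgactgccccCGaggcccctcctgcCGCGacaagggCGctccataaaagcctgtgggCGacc
Pdyn: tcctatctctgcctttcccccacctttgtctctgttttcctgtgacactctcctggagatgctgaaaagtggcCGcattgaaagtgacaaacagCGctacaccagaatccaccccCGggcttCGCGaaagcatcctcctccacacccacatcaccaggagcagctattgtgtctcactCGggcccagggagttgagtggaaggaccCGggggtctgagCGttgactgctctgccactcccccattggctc

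The Npy stretch held 21 CpG sites and 69.2% G or C, and the Pdyn stretch held 8 CpG sites and 57.2% G or C. The stretch before a second annotated Pdyn start, not shown, held 4 CpG sites and 44% G or C. Over 32851 annotated promoter stretches of 250 bases the medians were 6 CpG sites and 52.4% G or C, and 16.3% had at least 21 CpG sites. Both strands were searched for TGANTCA (AP-1), TGACGTCA (the cyclic AMP response element, CRE), the shorter TGACG, which lies within the full CRE, CACGTG (E-box) and GCGNGGGCG (the EGR site). None of these motifs was found in these stretches of 250 bases, the second Pdyn one included. The Npy start region was 820 bp wide, so most of it was not searched. Among all promoter stretches 6.75% held TGANTCA, 1.55% TGACGTCA, 17.8% TGACG, 6.02% CACGTG and 4.7% GCGNGGGCG.

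**Figure D1:**
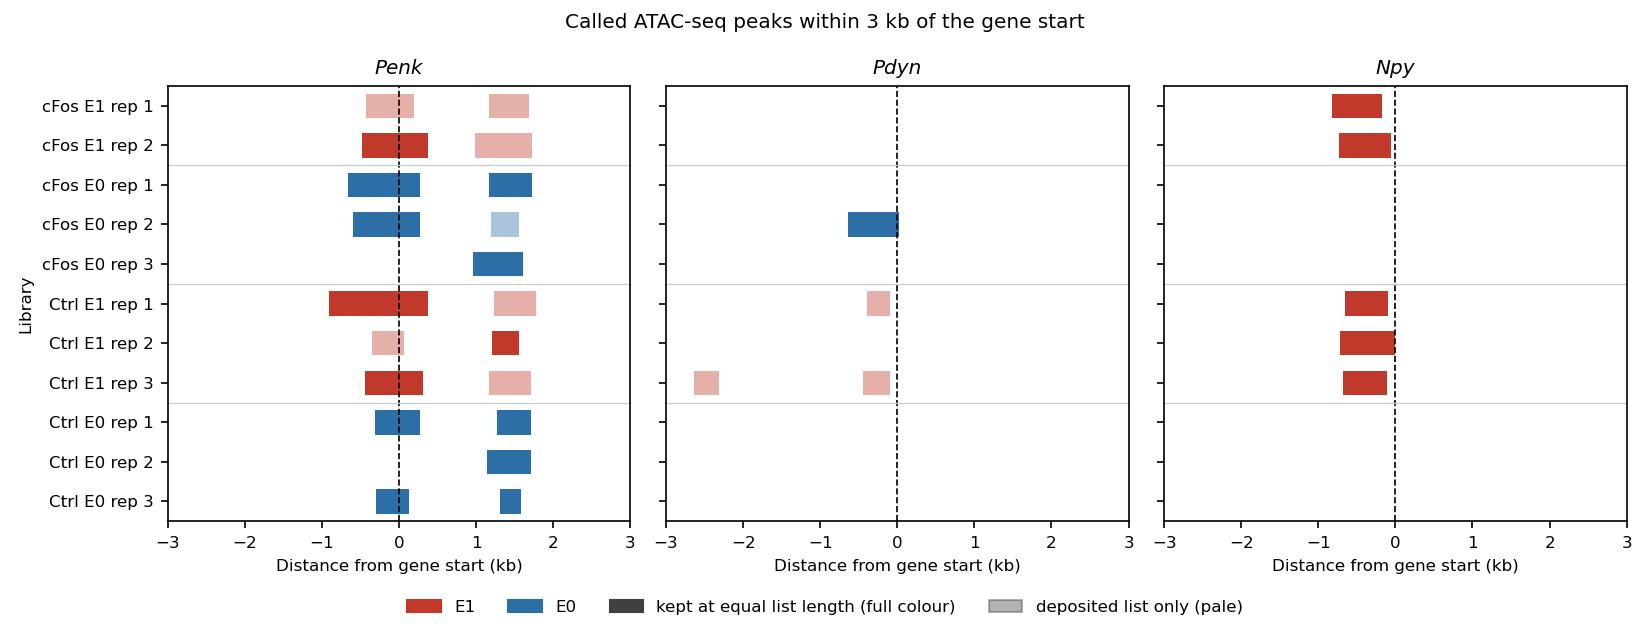
Called peaks within 3 kb of each gene start, by distance from the start in kb (x axis) and library (rows), with E1 in red and E0 in blue. Full colour marks peaks kept when every list was shortened to 25145 peaks, and pale colour those lost. At Npy all 5 E1 libraries and no E0 library had a peak; at Penk all 11 libraries had the peak centred at 1.4 kb.

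The score that the authors' caller gave the Npy start peak was 116.09 and 171.52 in shRNA-cFos E1, and no shRNA-cFos E0 library had a peak to score. In shRNA-Ctrl E1 the scores were 175.56, 104.57 and 200.07, again with no peak in shRNA-Ctrl E0. Every list, E0 lists included, reached down to a score of 50. Within their own lists these peaks stood at percentiles 53.5 and 69.3 in shRNA-cFos E1 and 70.2, 54.7 and 71.3 in shRNA-Ctrl E1, where 100 is the highest score. They were thus peaks of middling to upper rank and not the weakest of their lists.

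List length moved with the Npy start peak in 10 of the 11 libraries, and its part in the result was not tested. The 5 E1 lists with the peak held 35474 to 78349 peaks on chromosomes 1 to 19 and X, and 5 of the 6 E0 lists without it were all shorter, at 25145 to 33134. The exception was shRNA-cFos E0 replicate 2, which lacked the peak in a list of 74432. When lists were made equally long by keeping the 25145 top-scoring peaks of each, the Npy start peak was still called in 5 of 5 E1 and 0 of 6 E0 libraries. For 3 of the 5 the peak lay not far above the score at which their list ended after shortening: 116.09 against 103.38 in shRNA-cFos E1 replicate 1, 175.56 against 164.01 in shRNA-Ctrl E1 replicate 1 and 200.07 against 174.94 in shRNA-Ctrl E1 replicate 3. Without the 3 longest lists, a choice made after seeing the data, it was called in 3 of 3 E1 and in no E0 library.

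Of the 19 regions this was the only one called in every E1 and no E0 library. The same pattern was shown by 1104 of 128823 regions, 0.857%, and at equal list length by 0.963% of regions. Taken within an shRNA group, 1.96% of all regions were called in every shRNA-cFos E1 and no shRNA-cFos E0 library. For shRNA-Ctrl E1 against shRNA-Ctrl E0 that share was 6.04%, close to 1 of 19 (5.26%). In a two-sided exact permutation test with state labels permuted within shRNA groups, the share of libraries with a call was 1.0 higher at E1 (p = 0.005, the smallest this test allows). Over all merged regions 3.48% reached an unadjusted exact p under 0.05 with a higher share at E1. With Benjamini-Hochberg adjustment over all 128823 regions the Npy region did not pass (exact permutation test, adjusted p = 0.57), and neither did any other region. The adjusted p ran from 0.468 at equal list length to 1.0 over the alternatives. With 200 arrangements, a region could pass this adjustment only if a large share of all regions reached the smallest p. The adjusted test therefore cannot decide on a single region. The calls were the same with either shRNA, a difference of 0. Calls did not vary within a state, so permuting shRNA labels within states could give no other result. It therefore cannot decide whether the shRNA groups differed, and the scores were not tested between them.

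Elsewhere the Npy window was sparse. A region centred at -5.2 kb was called only in shRNA-cFos E0, in replicates 2 and 3 (scores 98.92 and 58.42). Regions centred at 6.8 and 7.8 kb were called in 1 library each, shRNA-Ctrl E1 replicates 1 and 3. Each library had 0 to 2 peaks in the window, while a stretch of 100 kb held 0.953 to 2.97 peaks on average over the 11 lists. Both shRNA-cFos E1 libraries had 1 peak, against 0.667 ± 0.577 (SD, n = 3) in shRNA-cFos E0. The mean was 1.67 ± 0.577 (SD, n = 3) with shRNA-Ctrl at E1, against 0 peaks in every library at E0. The stratified difference between E1 and E0 was 1.0 peak (exact permutation p = 0.05). It rested on the start region, since the other 3 regions held 2 peaks at E1 and 2 at E0.

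**Figure D2:**
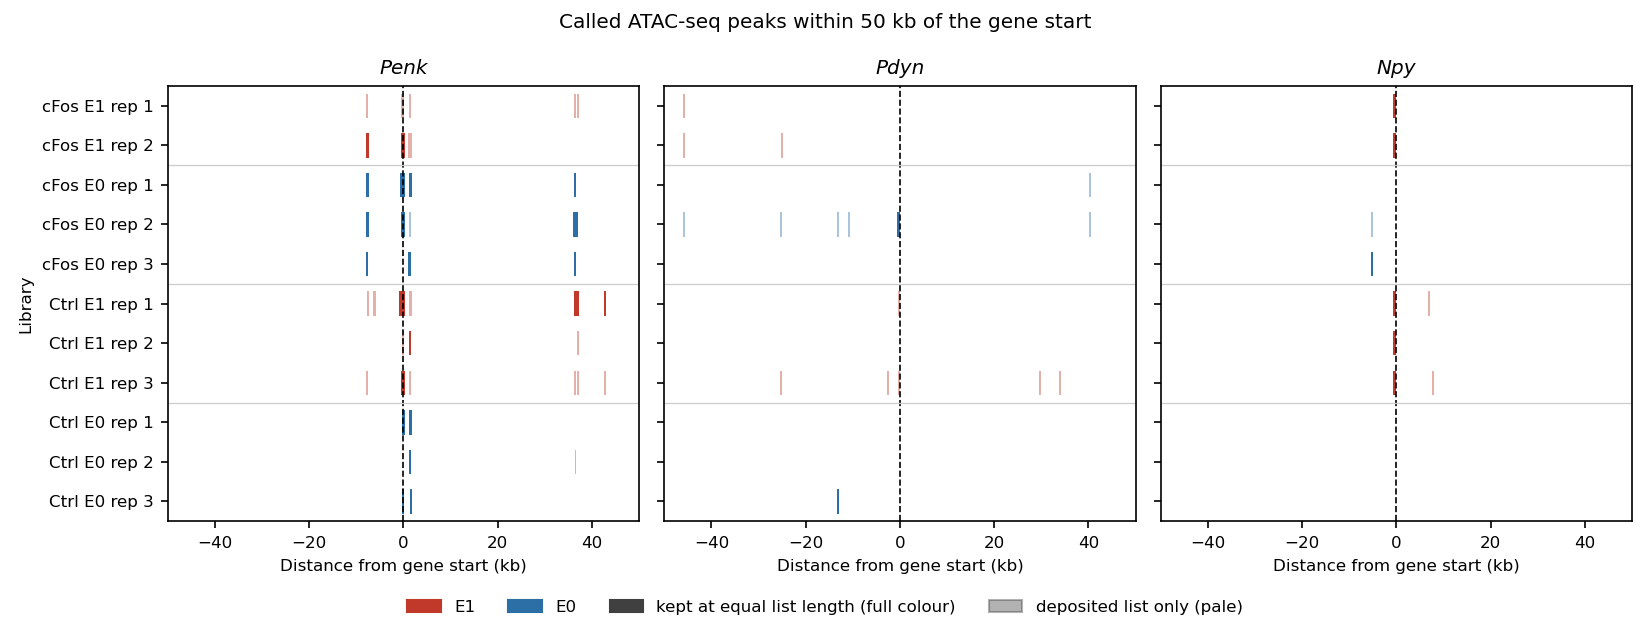
All called peaks within 50 kb of each gene start, by distance from the start in kb (x axis) and library (rows), with E1 in red and E0 in blue; full colour marks peaks kept at equal list length. Penk had 40 peaks in 6 regions, Pdyn 17 in 9 regions and Npy 9 in 4 regions.

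Penk had the most called peaks of the 3 genes, with 2 to 6 peaks per library and a peak in every library. Penk lies on the minus strand, so positive distances are upstream. Its neighbours in the gene order of GRCm38 are Sdr16c6, a short-chain dehydrogenase gene, and the long noncoding RNA gene A830012C17Rik. A region centred at 1.4 kb on chromosome 4 at 4066958 to 4067781 was called in all 11 libraries. A second region, at 4065090 to 4066380, spanned the start itself and was called in 9. Of all merged regions 9.16% were called in all 11 libraries and 17.6% in at least 8. At the 3 genes these were 1 and 3 of 19.

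Neighbouring as they are, these regions had different score patterns. In the region at 1.4 kb, scores were 93.16 and 72.55 in shRNA-cFos E1 and 92.17, 66.05 and 107.85 in shRNA-cFos E0. They were 82.67, 76.9 and 118.9 in shRNA-Ctrl E1 and 99.05, 82.99 and 91.41 in shRNA-Ctrl E0. The groups overlapped, from 66.05 to 118.9 over all libraries, and all 11 peaks shared 238 bp. Shortened lists ended at different scores. In shRNA-Ctrl E1 replicate 3 the list ended at 174.94 and the peak of 118.9 was lost. In shRNA-Ctrl E1 replicate 2 it ended at 69.47 and the peak of 76.9 was kept. At equal list length the region was left in 6 libraries. By group these were 0 of 2 shRNA-cFos E1, 2 of 3 shRNA-cFos E0, 1 of 3 shRNA-Ctrl E1 and 3 of 3 shRNA-Ctrl E0. The E1 minus E0 difference in share was then -0.67 (exact permutation p = 0.08, adjusted over all regions p = 0.951).

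The region over the Penk start varied far more. Its scores were 101.78 and 119.95 in shRNA-cFos E1, and 156.72 and 171.83 in shRNA-cFos E0 replicates 1 and 2, with no call in replicate 3. In shRNA-Ctrl E1 they were 396.38, 56.97 and 358.73, and in shRNA-Ctrl E0 60.59 and 71.17 in replicates 1 and 3, with no call in replicate 2. Both of the highest scores came from the 2 longest lists, and the lowest came from the other shRNA-Ctrl E1 library, so the states overlapped. Widths ran from 422 bp in that library to 1291 bp in shRNA-Ctrl E1 replicate 1, and the 9 peaks shared 361 bp. The region was called in 5 of 5 E1 and 4 of 6 E0 libraries (stratified difference in share 0.33, exact permutation p = 0.5). At equal list length it was called in 3 of 5 E1 and 4 of 6 E0 libraries, so the difference turned to -0.083 (exact permutation p = 0.94).

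Counted as a peak within 1 kb of the start, a Penk promoter peak recurred in 10 of 11 libraries as deposited and in 8 at equal list length. With a score of at least 100 it was left in 7. In shRNA-cFos E0 replicate 3 it was the edge of the region at 1.4 kb that met the rule. Within 500 bp the number was 9, and within 2 kb it was 11. A promoter peak was called in 3 of 11 libraries at Pdyn, 1 at equal length, and in 5 of 11 at Npy, 5 at equal length.

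A distal Penk region centred at -7.7 kb, at 4057982 to 4058644, was called in every shRNA-cFos library and in few shRNA-Ctrl libraries. Its scores were 86.09 and 98.96 in shRNA-cFos E1, against 58.97 and 91.28 in shRNA-Ctrl E1 replicates 1 and 3 and no call in replicate 2. They were 69.98, 253.84 and 57.74 in shRNA-cFos E0, against no call in any shRNA-Ctrl E0 library. The 2 shRNA-Ctrl libraries that called it were those with the longest lists. The share of libraries was 5 of 5 for shRNA-cFos and 2 of 6 for shRNA-Ctrl, a stratified difference of 0.67 (exact permutation p = 0.05; adjusted over all regions p = 1). At equal list length it was called in 4 of 5 shRNA-cFos and in no shRNA-Ctrl library (difference 0.75, exact permutation p = 0.02, adjusted p = 1). At a score of at least 100 it was left in 1 library, shRNA-cFos E0 replicate 2. Among all regions 1.11% were called in every shRNA-cFos E0 and no shRNA-Ctrl E0 library, and 1 of 19 here. At equal length the shares were 0.96% of all regions and 2 of 9, the second being the region at 36.7 kb.

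The other distal Penk region, centred at 36.7 kb, was called in 1 of 2 shRNA-cFos E1, 3 of 3 shRNA-cFos E0, 3 of 3 shRNA-Ctrl E1 and 1 of 3 shRNA-Ctrl E0 libraries. In 2 libraries, shRNA-cFos E1 replicate 1 and shRNA-Ctrl E1 replicate 3, it consisted of 2 peaks. The highest score per library was 65.59 in shRNA-cFos E1, against 69.37, 185.26 and 74.24 in shRNA-cFos E0. It was 309.34, 58.99 and 137.99 in shRNA-Ctrl E1, against 52.19 in shRNA-Ctrl E0. Calls were fewer at E1 than at E0 with shRNA-cFos and more with shRNA-Ctrl, and over both shRNA groups the difference was 0.083 (exact permutation p = 1). Whether the E1 effects on this region differed between shRNA groups was not tested. At equal length it was left in 3 of 3 shRNA-cFos E0 libraries and 1 of 3 at shRNA-Ctrl E1, and nowhere else. In that form it was found in every shRNA-cFos E0 and no shRNA-cFos E1 library, as were 1.54% of all regions.

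The remaining Penk regions, at -6.1 and 42.8 kb, were called in 1 and 2 libraries, all shRNA-Ctrl E1 replicates 1 or 3. Over the whole Penk window the number of peaks was 4 ± 1.41 (SD, n = 2) in shRNA-cFos E1 and 3.67 ± 0.577 (SD, n = 3) in shRNA-cFos E0. It was 5 ± 1.73 (SD, n = 3) in shRNA-Ctrl E1 and 2 in each of the 3 shRNA-Ctrl E0 libraries. The stratified difference between E1 and E0 was 1.67 peaks (exact permutation p = 0.095). With lists of equal length it was -1.17 peaks (exact permutation p = 0.155), in the opposite direction. The means were then 1 and 3.33 in shRNA-cFos E1 and E0, and 1.67 in both shRNA-Ctrl states.

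**Figure D3:**
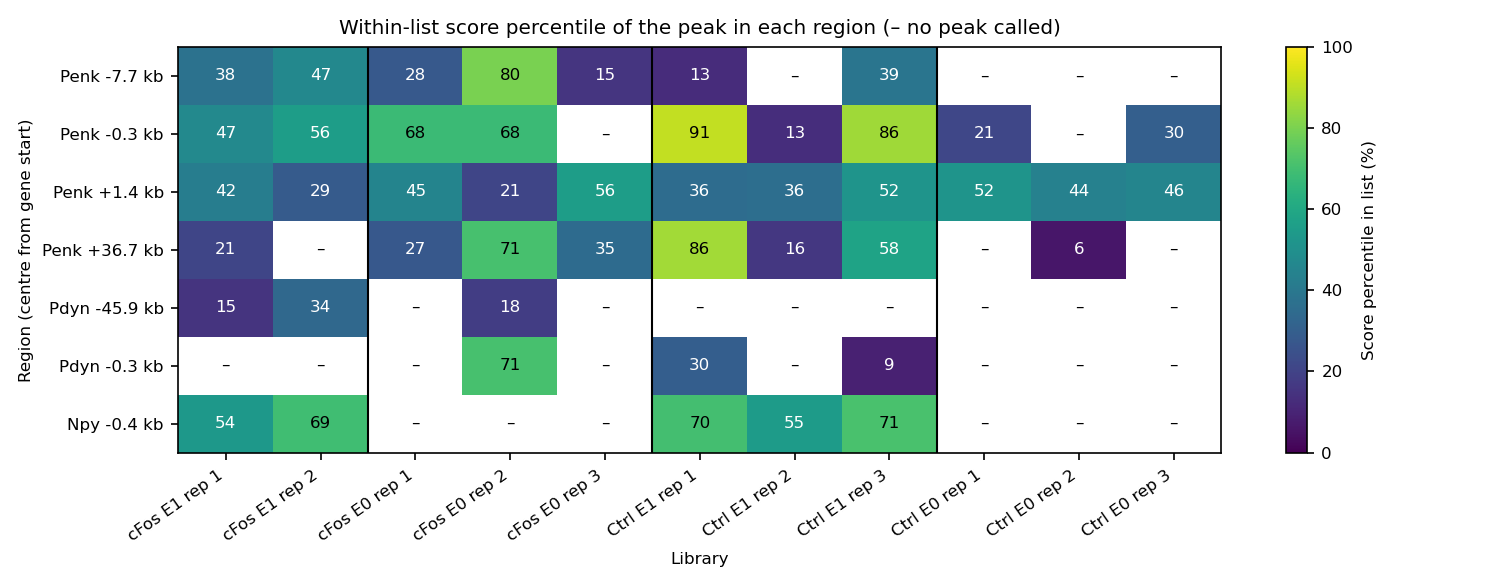
Within-list score percentile of the peak in each of the 7 regions described in full (rows, named by gene and centre from the start) for each library (columns; shRNA-cFos E1, shRNA-cFos E0, shRNA-Ctrl E1, shRNA-Ctrl E0). A dash marks no call; the Npy row is filled in the 5 E1 columns alone, and the Penk 1.4 kb row in all 11.

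Called peaks at Pdyn recurred in few libraries. Its neighbours in the gene order of GRCm38 are Sirpa, a membrane receptor gene, and the pseudogene Gm14046, and their positions relative to the mm9 window were not determined. None of its 9 regions was called in more than 3 libraries, a share not counted over all regions. Of the 9, 4 were called in 1 library, against 2 of 4 at Npy and 37.9% of all regions. Any peak in the window was called in 7 libraries at Npy and in 7 at Pdyn. A region at the Pdyn start, on chromosome 2 at 129525367 to 129526025, was called in 3 libraries. These were shRNA-cFos E0 replicate 2 (score 185.05) and shRNA-Ctrl E1 replicates 1 and 3 (scores 75.4 and 56.56), the 3 libraries with the longest lists. No shRNA-cFos E1 and no shRNA-Ctrl E0 library had a peak there. At equal length the call in shRNA-cFos E0 replicate 2 alone was left. The region ran from -633 to 25 bp and so spanned the start position. Pdyn lies on the minus strand, so negative distances point into the gene.

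Only 1 Pdyn region met the rule for a group difference. Centred at -45.9 kb, at 129479939 to 129480360, it was called in both shRNA-cFos E1 libraries (scores 60.3 and 78.52) and in no shRNA-Ctrl E1 library, a pattern shown by 0.534% of all regions. It was also called in shRNA-cFos E0 replicate 2 (score 63.2) and in no shRNA-Ctrl E0 library. The stratified difference between shRNA groups was 0.67 (exact permutation p = 0.05; adjusted over all regions p = 1). With lists of equal length or a score of at least 100 it was called nowhere.

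Other Pdyn regions were weak and scattered. Those at -25.1, -13.1 and 40.3 kb were called in 3, 2 and 2 libraries, with scores of 56.96 to 121.67. Of the 17 Pdyn peaks, 11 came from shRNA-cFos E0 replicate 2 and shRNA-Ctrl E1 replicate 3. At equal length 2 of the 17 were left, against 22 of 40 at Penk and 6 of 9 at Npy. Over the whole series that cut kept 25145 peaks in each of 11 lists, which held 497658 in all. Peaks per library numbered 1.5 ± 0.707 (SD, n = 2) in shRNA-cFos E1 and 2.33 ± 3.21 (SD, n = 3) in shRNA-cFos E0. They numbered 2 ± 2.65 (SD, n = 3) in shRNA-Ctrl E1 and 0.333 ± 0.577 (SD, n = 3) in shRNA-Ctrl E0. The SD exceeded the mean in 3 of the 4 groups, and E1 minus E0 was 0.42 peaks (exact permutation p = 0.8).

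**Figure D4:**
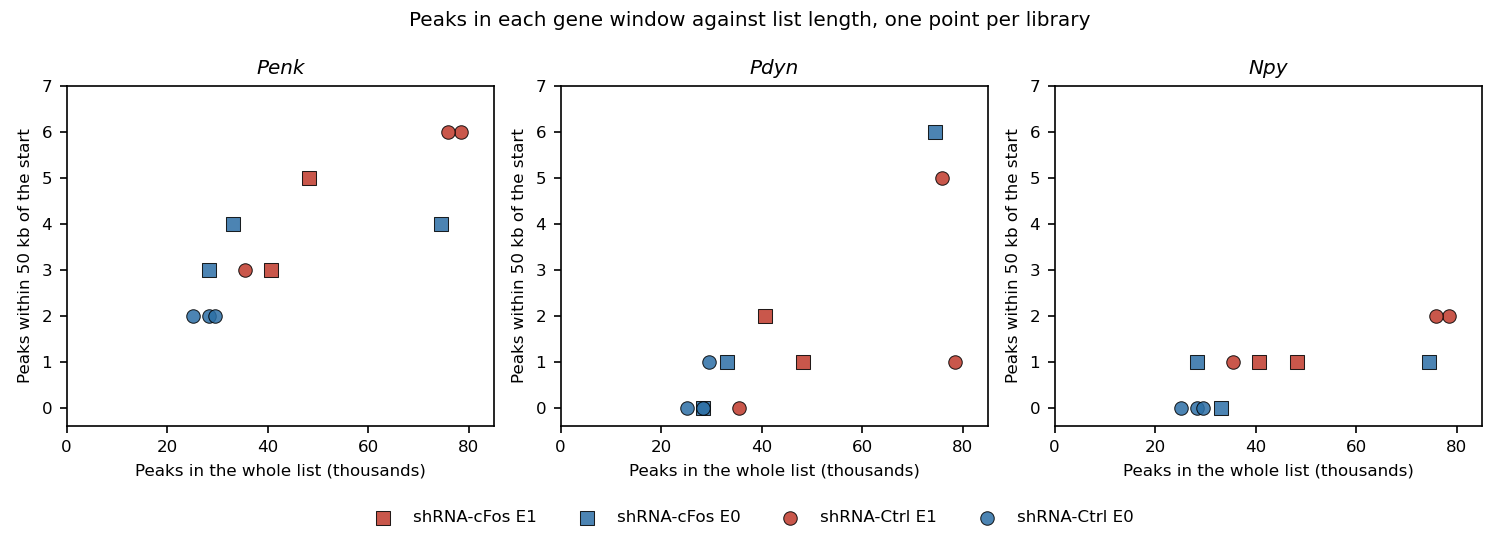
Peaks within 50 kb of each gene start (y axis) against the number of peaks in the whole list (x axis), 1 point per library; squares are shRNA-cFos, circles shRNA-Ctrl, red E1 and blue E0. The 2 longest lists, both shRNA-Ctrl E1, held 6 peaks each at Penk, where all 3 shRNA-Ctrl E0 lists held 2.

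For the number of peaks per window no contrast passed the adjusted threshold. The shRNA-cFos minus shRNA-Ctrl difference was 0.33 peaks at Penk (exact permutation p = 0.69), 0.75 at Pdyn (exact p = 0.59) and 0 at Npy (exact p = 1). The interaction, E1 minus E0 with shRNA-cFos less E1 minus E0 with shRNA-Ctrl, was -2.67 at Penk (exact permutation p = 0.215), -2.5 at Pdyn (exact p = 0.47) and -1.33 at Npy (exact p = 0.23). These 9 tests share libraries, and the smallest p over them was 0.05. After Benjamini-Hochberg adjustment over the 9 none passed (exact permutation, lowest adjusted p = 0.427).

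In the lists as deposited 4 of the 19 regions had a lower share of calls at E1 than at E0: Npy at -5.2 kb and Pdyn at -13.1 and 40.3 kb (-0.33 each) and Pdyn at -10.7 kb (-0.17). None of them was called in more than 2 libraries. How many of all merged regions had a lower share at E1 was not counted, so the 4 have no background to be set against. None of the 19 was called in every shRNA-cFos E0 and no shRNA-cFos E1 library (0.548% of all regions), or in every shRNA-Ctrl E0 and no shRNA-Ctrl E1 library (0.0442%). None was called in every shRNA-Ctrl E1 library and never with shRNA-cFos at E1 (1.59%), nor in every shRNA-Ctrl E0 library and never with shRNA-cFos at E0 (0.0217%). None was called in all 6 E0 libraries alone, as were 0.00233% of all regions. An unadjusted exact permutation p under 0.05 was reached by 0 of 19 for a lower share at E1 (0.0241%). For shRNA-cFos against shRNA-Ctrl it was reached by 0 of 19 in either direction (0.202% higher, 0.0396% lower).

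At equal list length 9 regions were left, and the Npy start remained the 1 region in every E1 and no E0 library of each shRNA group (3.39% of all regions with shRNA-cFos, 3.51% with shRNA-Ctrl). It was also the 1 of 9 with an unadjusted exact permutation p under 0.05 for a higher share at E1 (3.09%), with 0 of 9 for a lower share (0.713%). The Penk region at -7.7 kb was the 1 of 9 below that p for a higher share with shRNA-cFos (0.494%), with 0 of 9 for a lower share (0.108%). None of the 9 was called in every shRNA-Ctrl E0 and no shRNA-Ctrl E1 library (1.15%), or in all 6 E0 libraries alone (0.106%). None separated the shRNA groups at E1, in favour of shRNA-cFos (1.7%) or of shRNA-Ctrl (1.08%), and none favoured shRNA-Ctrl at E0 (0.417%). Recurrence was lost too: 0 of 9 were called in all 11 libraries (16.4%), 0 in at least 8 (27%) and 4 in 1 (32.9%).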

How the data were processed

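The authors deposited 1 list of peaks per library; the peak names carry the name MACS, a peak caller, and the submitters' processing notes name Bowtie2 and build mm9. For read filters, the transposase shift and call settings no source used here gives a statement. The deposited score lies between 50 and 3100 on a scale that is not stated. Percentiles and lists of equal length used it only within a list. The alternative with a score minimum applied the same cut to every list, and the scores printed for single libraries are raw. Whether a score means the same in different lists was not tested. The lowest score kept at equal length was 50 in shRNA-Ctrl E0 replicate 1 and 174.94 in shRNA-Ctrl E1 replicate 3. Deeper sequencing can lengthen a list, and depth is unknown here. The names of the 2 longest lists, shRNA-Ctrl E1 replicates 1 and 3, lack the word 'all' that the other names carry. Whether these 2 were processed differently is not known.

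Lists held 25145 to 78349 peaks on chromosomes 1 to 19 and X. Peaks sharing 1 bp were merged; a library with a peak in a region called it. Described in full are regions within 1 kb of a start, called in at least 8 libraries, or found in every library of 1 group and none of the other. The members and lists were chosen with earlier results of these data known. Tests are two-sided exact permutation tests, with Benjamini-Hochberg adjustment over all regions, or over 9 tests of peak number. Their p-values measure the spread between libraries, 1 per mouse, in which differences between mice and in list length cannot be told apart. The code was tested on simulated lists. Gene order and promoters came from RefSeq GRCm38.p6. The gene order held all 3 genes, while among the promoters 2 of 3 matched by symbol (Npy and Pdyn but not Penk). Python 3.11.15, numpy 2.4.6, pandas 2.3.3 and matplotlib 3.10.9 were used. Alternatives were lists of equal length, a score minimum of 100, merging within 200 bp, calls covering 50% of a region, windows of 25 or 100 kb, covered length, a replicate block, and leaving out each library or the 3 longest lists.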

Additional observations from a re-analysis of the deposited data

How the results depend on the processing

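The Npy start region kept a difference of 1.0 between E1 and E0 in all 17 alternatives run, with an exact permutation p from 0.005 to 0.0625. The highest p came from the replicate block, which pairs libraries by number. It is the smallest p that this design allows, so the 1 region with an unadjusted exact p under 0.05 became 0 there, and the E1 minus E0 difference in Pdyn peaks was -0.17. Same-numbered libraries did not deviate together (correlations of -0.041 to 0.064), so the numbers were not taken as pairs. With a score of at least 100 the Npy window difference was 1.0 peak (exact permutation p = 0.005), the 1 setting in which a test of peak number passed the adjustment over 9 tests (adjusted p = 0.045; range over its alternatives 0.045 to 0.608).

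At equal list length the E1 minus E0 difference in peak number turned to -1.17 at Penk and -0.33 at Pdyn. The E1 minus E0 share turned to -0.25, -0.083 and -0.33 for the Penk regions at -7.7, -0.3 and 36.7 kb. At the Pdyn start it turned to -0.17, and shRNA-cFos minus shRNA-Ctrl to 0.17. The Pdyn promoter peak was left in 1 library. Regions in every shRNA-cFos E0 library numbered 1 against shRNA-cFos E1 and 2 against shRNA-Ctrl E0, those for shRNA-cFos E1 against shRNA-Ctrl E1 numbered 0, and 1 region had an unadjusted exact p under 0.05 between shRNA groups. That last count was also 1 when a call needed 50% of a region covered, a setting for which the share over all regions was not computed.

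With a score of at least 100 the E1 minus E0 difference was -0.17 for Pdyn peak number, the Penk region at -7.7 kb and the Pdyn start, where shRNA-cFos minus shRNA-Ctrl was 0.17. For the Penk region at 36.7 kb shRNA-cFos minus shRNA-Ctrl was -0.17. The Pdyn promoter peak was left in 1 library, and 0 regions separated shRNA-cFos from shRNA-Ctrl at E1 or at E0. The matching shares over all regions were not computed.

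Without the 3 longest lists together, chosen after seeing the data, the interaction was 1.33 peaks at Pdyn, -0.5 at Penk and -0.5 at Npy. The E1 minus E0 difference at Penk was 0.75 peaks, shRNA-cFos minus shRNA-Ctrl there was 1.25, and the Penk 36.7 kb region had an E1 minus E0 share of -0.42. Promoter peaks were left in 0 libraries at Pdyn and 3 at Npy. Regions found in every shRNA-cFos E1 library numbered 2 against shRNA-cFos E0 and 2 against shRNA-Ctrl E1. Those in every shRNA-Ctrl E1 and no shRNA-Ctrl E0 library numbered 2, and 1 had an unadjusted exact p under 0.05 between shRNA groups. Fewer libraries make such patterns easier to meet, and the shares over all regions were not computed here. With windows of 100 kb on either side the interaction was -6.17 at Penk (exact permutation p = 0.085), -3.83 at Pdyn and -2.5 at Npy, and with windows of 25 kb it was -1.0 at Penk.

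Leaving out 1 library at a time, E1 minus E0 ran from 1.17 to 2.17 peaks at Penk, -0.33 to 1.33 at Pdyn (negative without shRNA-cFos E0 replicate 3 or shRNA-Ctrl E1 replicate 3) and 0.83 to 1.17 at Npy. The shRNA-cFos minus shRNA-Ctrl difference ran from -0.17 to 0.83 at Penk, negative without shRNA-cFos E1 replicate 1 or shRNA-Ctrl E1 replicate 2. It ran from -0.17 to 1.5 at Pdyn, negative without shRNA-cFos E0 replicate 2, and from -0.17 to 0.17 at Npy. The interaction ran from -3.67 to -1.67, -3.67 to -0.67 and -1.67 to -1.17 at Penk, Pdyn and Npy. Regions in every library of a group and none of the other numbered 1 to 2 for shRNA-cFos E1 against shRNA-cFos E0 and 1 to 4 for shRNA-Ctrl E1 against shRNA-Ctrl E0, with 4 when shRNA-Ctrl E1 replicate 2 was left out. They numbered 0 to 1 for shRNA-cFos E0 against shRNA-cFos E1, 0 to 2 for shRNA-Ctrl E1 against shRNA-cFos E1 and 1 to 2 for shRNA-cFos E0 against shRNA-Ctrl E0. Regions with an unadjusted exact p under 0.05 between shRNA groups numbered 0 to 1. Leaving out a library makes the rule of every library and none easier to meet. Shares over all regions were not computed for these settings, so the counts are not results about the 3 genes. The Penk 36.7 kb region ran from -0.17 to 0.33 in both contrasts, negative without shRNA-cFos E1 replicate 1. The cause of these changes was not tested. Depth is unknown, so a missing call does not show closed chromatin.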
